A study of Mus musculus with 6 samples.

Results

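Hmga2 and the genes around the Lin28 and let-7 pathway were examined in RNA from bone marrow cells of mice, from a gate set for long-term haematopoietic stem cells (LT-HSC). The mice were wild type and were kept for 3 months on a high cholesterol diet (HCD, 3 libraries) or on a control diet (CD, 3 libraries). The strain, age and sex of the mice are not stated by the sources used here. Whether each library came from 1 animal or a pool is also not stated. The p-values therefore measure the spread among these 6 libraries, part of which may be technical. The gate took lineage-negative cells with KIT and SCA1 on their surface and without CD34 and CD135. The 8 genes described are Hmga2, Hmga1, Lin28b, Igf2bp1, Igf2bp2, Igf2bp3, Arid3a and Arid3b, out of 21851 genes with a symbol. They were taken by symbol. Hmga2 was chosen by its FPKM in these 6 libraries, where it was lower under HCD, and the others because they are known partners or targets of the same pathway. Their differences between the diets are therefore a description and carry no test. Values are FPKM, read numbers scaled to the length of the transcript and the depth of the library, which allows levels to be set side by side between genes.

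The let-7 microRNAs are a family of small RNAs that bind sites in the 3' untranslated region (UTR) of mRNAs and lower their stability and translation. LIN28A and LIN28B are RNA-binding proteins that block the maturation of let-7, and the mRNAs of HMGA2, the IGF2BP proteins, ARID3A and ARID3B are among the best known let-7 targets. In blood formation the pathway is known for setting fetal against adult properties of stem cells. LIN28B is abundant in fetal stem cells, and HMGA2, a chromatin protein that binds AT-rich DNA, supports their self-renewal and declines in adults.

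The mature let-7 sequences are shown because all of the sites described here derive from their seed, bases 2 to 8, set in capitals (RefSeq sequences, GRCm38.p6). In this list of 11 microRNAs, let-7j is the one with another seed.
let-7a-5p: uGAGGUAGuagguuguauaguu
let-7b-5p: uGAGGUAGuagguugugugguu
let-7c-5p: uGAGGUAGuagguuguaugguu
let-7d-5p: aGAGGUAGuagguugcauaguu
let-7e-5p: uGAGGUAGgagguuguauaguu
let-7f-5p: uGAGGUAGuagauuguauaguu
let-7g-5p: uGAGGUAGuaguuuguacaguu
let-7i-5p: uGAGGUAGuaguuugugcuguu
let-7k: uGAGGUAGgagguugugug
miR-98-5p: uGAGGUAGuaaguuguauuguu
let-7j: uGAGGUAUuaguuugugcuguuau

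A match was counted on the mRNA's own strand as CTACCTC (a 7mer-m8, pairing with the whole seed), TACCTCA (a 7mer-A1, pairing with bases 2 to 7 and followed by A) or CTACCTCA (an 8mer, which holds both and was counted once). The longest annotated 3' UTR of each gene was searched, in GENCODE vM21 on GRCm38. Of 20030 such UTRs, 15.3% held at least 1 match and 3.2% held an 8mer. All 8 genes held at least 1 match, and 6 of them held an 8mer, Hmga1 and Arid3b being those without. Since the genes were picked as let-7 targets, this follows in part from the choice. Longer UTRs hold matches more often, with 33.3% of the 5292 UTRs of 2000 bases or more.

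Hmga2 had 7 matches in a 3' UTR of 3014 bases. More were found in only 2 of the 20030 UTRs, with 8 each, and 3 UTRs including that of Hmga2 had 7. The 7 matches are shown with the bases before them, matched letters in capitals, on the minus strand of chromosome 10, with their distance from the stop codon.
Hmga2 8mer at base 58, chr10:120364224-120364253: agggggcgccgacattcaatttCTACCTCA
Hmga2 7mer-A1 at base 1143, chr10:120363140-120363169: ccgtgaaagaccgcagtaccactTACCTCA
Hmga2 7mer-m8 at base 1295, chr10:120362988-120363017: gcaataatccccactcctcaataCTACCTC
Hmga2 7mer-A1 at base 1684, chr10:120362599-120362628: tcaaatataagtctccaagtttgTACCTCA
Hmga2 7mer-m8 at base 1733, chr10:120362550-120362579: tggacttcctgatttgcaaggaaCTACCTC
Hmga2 7mer-m8 at base 2591, chr10:120361692-120361721: tgttgtacaatcaaaacacactaCTACCTC
Hmga2 7mer-A1 at base 2611, chr10:120361672-120361701: ctactacctcttaagtcccagtaTACCTCA

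Arid3b and Igf2bp1 had 5 matches each, and so did Lin28b. Arid3a had 4 matches, Igf2bp2 had 2, and Hmga1 and Igf2bp3 had 1 each. Per kilobase of UTR, Hmga2 (2.32) and Arid3b (2.31) had the densest matches and Igf2bp3 the fewest (0.47). One match of each gene is shown for comparison, an 8mer where the gene has one, in the direction of the mRNA (plus strand for Hmga1 and Arid3a, minus strand for the others).
Hmga1 7mer-m8 at base 801, chr17:27563269-27563298: ccatcttctcctctgttcacaaaCTACCTC
Lin28b 8mer at base 36, chr10:45381022-45381051: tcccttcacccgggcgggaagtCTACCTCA
Igf2bp1 8mer at base 1715, chr11:95961778-95961807: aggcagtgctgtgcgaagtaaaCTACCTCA
Igf2bp2 8mer at base 1313, chr16:22059473-22059502: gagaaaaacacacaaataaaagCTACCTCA
Igf2bp3 8mer at base 548, chr6:49086787-49086816: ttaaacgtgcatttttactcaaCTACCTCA
Arid3a 8mer at base 1974, chr10:79953888-79953917: cacatgcaaggcaagtttctttCTACCTCA
Arid3b 7mer-m8 at base 2148, chr9:57790362-57790391: aatgtttatatttcaataaagctCTACCTC

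**Figure D1:**
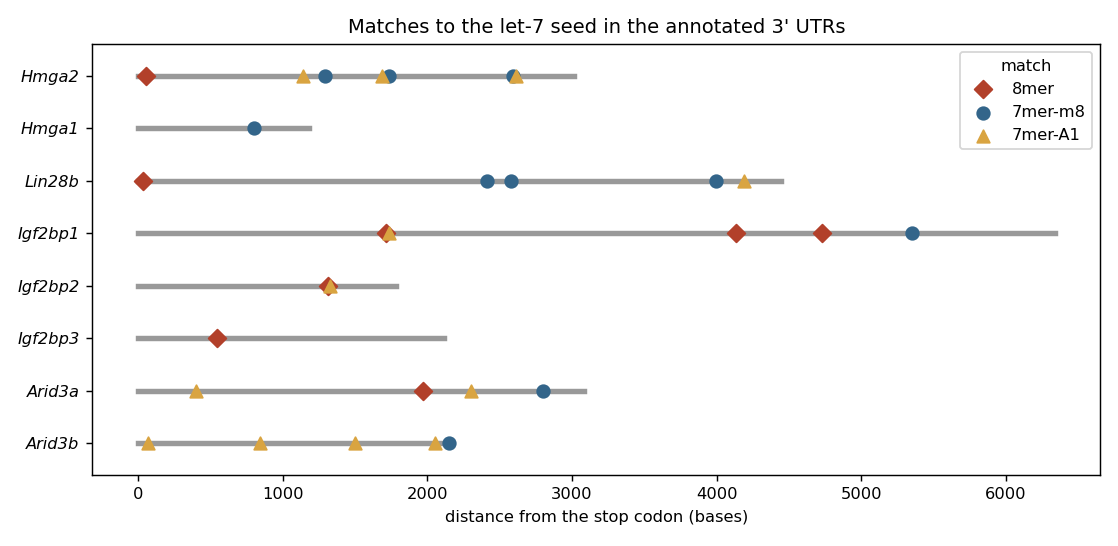
Matches to the let-7 seed along the longest annotated 3' UTR of each of the 8 genes; the x axis is the distance from the stop codon in bases, grey lines show the length of the UTR, and symbols mark the kind of match. Hmga2 carries 7 matches over 3014 bases and Igf2bp1 carries 5 over 6337 bases.

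The libraries were of similar depth, at about 18860000 to 19920000 reads or fragments each, estimated from the step that 1 read makes among low values. HCD replicate 2 stood apart, at 14.7 on the second principal component against -7.8 and -10.1 for HCD replicates 1 and 3. The transcripts of the sort markers go in part against the gate. Kit averaged 119.9 ± 3.17 FPKM (SD over 6 libraries) and Ly6a, which encodes SCA1, 64.2 ± 3.59. Cd34 averaged 464 ± 16.0 and Flt3, which encodes CD135, 109 ± 5.73 FPKM, although the gate excludes cells with these proteins on their surface. Of the stem cell genes, Procr (21.0 ± 1.91) and Hlf (52.5 ± 4.25) were expressed, while Slamf1 was low (2.60 ± 0.952). Hoxb5 was lower still, at 0.928 ± 0.359 FPKM under HCD and 0.880 ± 0.311 under CD (SD, n = 3 each). Cd48, listed here as a gene of multipotent progenitors, averaged 70.2 ± 3.28 FPKM. The samples are therefore called the libraries labelled LT-HSC.

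Hmga2 (chromosome 10, 120361275 to 120476469, minus strand, GRCm38) had 1.04, 0.681 and 1.32 FPKM in the HCD libraries, against 5.01, 4.53 and 5.10 FPKM in the CD libraries. Every HCD library lay below every CD library, with a wide gap between the highest HCD and the lowest CD value. HCD replicate 2 was the lowest of the 6. The means were 1.01 ± 0.321 FPKM under HCD and 4.88 ± 0.303 FPKM under CD (SD, n = 3 each), which is 4.81-fold lower under HCD. As log2(FPKM + 1), a scale on which changes of low genes come out too small, the difference was -1.56 ± 0.14 (SE). It was the largest decrease among the 10676 genes tested on that scale, which is part of what the gene was chosen by. By the ratio of the means Hmga2 had rank 2 from the lowest. Without HCD replicate 2 the log2 difference was -1.43.

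These levels correspond to about 79, 52 and 96 reads of Hmga2 in HCD replicates 1, 2 and 3, against 365, 326 and 366 reads in CD replicates 1, 2 and 3, if the longest coding transcript of 3810 bases is taken. The rank of Hmga2 moved too, which restates the difference by which it was chosen. Its mean exceeded that of 51.3% of all genes under HCD and of 62.0% under CD. In the same libraries genes of granulocyte and monocyte progenitors summed to 1620 to 1794 FPKM under HCD and 877 to 904 FPKM under CD, and their part in the Hmga2 level was not tested. In RNA from sorted cells, fewer cells that express a gene and less of its RNA per cell cannot be told apart.

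**Figure D2:**
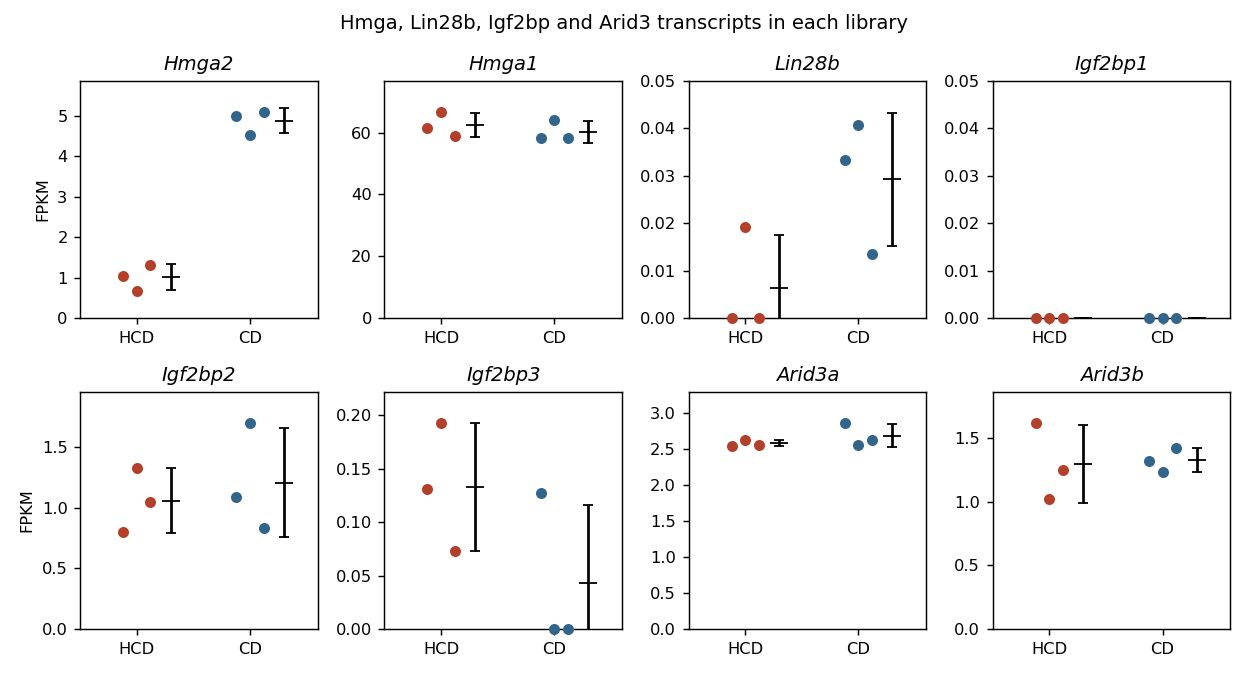
FPKM of the 8 genes in each library, HCD left of CD, with a separate y axis from 0 for each gene; points are libraries, and the black bar with whiskers is the mean ± SD of 3 libraries. The groups are apart for Hmga2 and overlap for the other genes, of which Igf2bp1 is at 0 throughout.

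Hmga1 (chr17:27556497-27563674), the other gene for an AT-hook chromatin protein of this family, was far more abundant than Hmga2. It had 61.4, 66.6 and 59.0 FPKM in the HCD libraries, against 58.3, 64.1 and 58.1 FPKM in the CD libraries. The groups overlapped, with the highest value in HCD replicate 2 and the next in CD replicate 2. The log2 difference was 0.05 ± 0.07 (SE), and its means were 62.3 ± 3.92 FPKM under HCD and 60.2 ± 3.40 FPKM under CD (SD, n = 3 each). Hmga1 thus exceeded Hmga2 67.2 ± 27.5 times under HCD and 12.4 ± 1.52 times under CD (SD, n = 3 each). Reads that closely related sequences share could be split by the counting, so the level of Hmga1 is uncertain. AI413582 overlaps Hmga1 on the opposite strand and Malsu1 overlaps Igf2bp3. The kit keeps strand, but whether the counting used it is not stated, so reads from these overlaps are uncertain.

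Lin28b (chr10:45376620-45486395), which encodes the block on let-7 maturation, was at the edge of detection. It was listed at 0, 0.0193 and 0 FPKM in the HCD libraries, against 0.0334, 0.0407 and 0.0136 FPKM in the CD libraries, or about 2 reads in all under HCD and 8 reads in all under CD. At this depth 3 reads of Lin28b are worth about 0.029 FPKM, so a difference between the diets was not detectable. Its relative Lin28a, known from embryonic stem cells, was also near 0, at 0.0446 ± 0.0221 FPKM under HCD and 0.0178 ± 0.0163 FPKM under CD (SD, n = 3 each).

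The IGF2BP proteins bind mRNAs and stabilise them. Igf2bp1 (chr11:95957163-96005940) was listed at 0 in all 6 libraries, and 3 reads would have given about 0.019 FPKM. Igf2bp3 (chr6:49085223-49214957) was at 0.131, 0.193 and 0.0732 FPKM in the HCD libraries, against 0.128, 0 and 0 FPKM in the CD libraries. These are about 34 reads in all under HCD and 11 reads in all under CD, and the groups overlapped. Igf2bp2 (chr16:22059009-22163299), which HMGA2 is known to activate in muscle and embryos, was the expressed member of the family. Its levels were 0.796, 1.33 and 1.05 FPKM in the HCD libraries, against 1.08, 1.70 and 0.831 FPKM in the CD libraries. The groups overlapped in full, and replicate 2 was the highest in each. The log2 difference was -0.09 ± 0.20 (SE), and it changed sign to 0.07 without CD replicate 2 and to 0.01 without HCD replicate 1.

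Arid3a (chr10:79927043-79955018) and Arid3b (chr9:57790353-57836793) encode DNA-binding proteins with an ARID domain, the first known for its part in B cell development. Arid3a had 2.55, 2.63 and 2.57 FPKM in the HCD libraries, against 2.87, 2.57 and 2.63 FPKM in the CD libraries. The groups overlapped, and the log2 difference was -0.04 ± 0.04 (SE). Arid3b had 1.62, 1.02 and 1.25 FPKM in the HCD libraries, against 1.32, 1.24 and 1.42 FPKM in the CD libraries. Both the highest and the lowest Arid3b value were from HCD libraries, and the log2 difference was -0.03 ± 0.11 (SE). With the trend against transcript length removed these differences were 0.03 and 0.02, so neither gene has a direction that holds across scalings.

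Across all 6 libraries the order of mean levels was Hmga1 (61.3 FPKM), Hmga2 (2.95), Arid3a (2.64), Arid3b (1.31), Igf2bp2 (1.13), Igf2bp3 (0.0875), Lin28b (0.0178) and Igf2bp1 (0). Neighbours in this order overlapped between libraries for Hmga2 with Arid3a, Arid3b with Igf2bp2, Igf2bp3 with Lin28b, and Lin28b with Igf2bp1. Under HCD, Hmga2 lay below Arid3a in each library, and under CD it lay above Arid3a in each. Of the 8 genes, 5 passed the filter of 1 FPKM in at least 3 libraries and 3 (Lin28b, Igf2bp1 and Igf2bp3) did not. In the fit over all tested genes 1 of these 5, Hmga2, passed an adjusted p of 0.05, where 13.9% of all genes did. The groups were apart for that same gene and for 37.7% of all tested genes, with 22.7% wholly below and 15.0% wholly above in HCD. Since the genes were chosen with this contrast known, nothing is read from these counts.

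The comparison of the diets was then extended to genes that make, degrade or act with let-7. Of 24 listed genes 22 were tested, and 6 were lower and 0 higher under HCD by limma (27.3% lower, against 7.66% of all tested genes). At an unadjusted p under 0.05, 11 were lower and 0 higher, where 1955 and 1349 of all 10676 were. That count was 6 lower and 1 higher with the trend against transcript length removed, and 6 lower without CD replicate 1 or CD replicate 3. The median log2 difference was -0.18 in the list and -0.03 over all tested genes. Trim25, a ubiquitin ligase gene whose product activates the uridylation of the let-7 precursor, was at 17.6 ± 1.25 FPKM under HCD and 24.1 ± 1.22 FPKM under CD (SD, n = 3 each), with a log2 difference of -0.43 ± 0.07 (SE; limma adjusted p = 0.00586). Xpo5, which encodes the exporter of microRNA precursors from the nucleus, was at 24.99 ± 1.56 FPKM under HCD and 31.9 ± 1.01 FPKM under CD (log2 difference -0.34 ± 0.06, adjusted p = 0.0086, and 0.0524 without CD replicate 1). Dgcr8, the RNA-binding partner of the Drosha nuclease, was at 8.54 ± 0.167 FPKM under HCD and 11.0 ± 0.536 FPKM under CD (adjusted p = 0.014). Ago2, an Argonaute gene, was at 12.1 ± 1.07 FPKM under HCD and 15.7 ± 0.506 FPKM under CD (adjusted p = 0.0181). The other Argonaute genes Ago1, Ago3 and Ago4 did not pass (adjusted p = 0.121, 0.187 and 0.863). The remaining pair past the threshold were Khsrp (adjusted p = 0.0271) and Adar (0.0184). Khsrp lost its call with no filter (0.0582) and without CD replicate 1 (0.117) or CD replicate 3 (0.108), and Adar without HCD replicate 1 or any one CD library (0.0588 to 0.0812).

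The genes of this list are long, with a median transcript of 5729 bases against 3107 bases over all tested genes, and longer transcripts were lower under HCD in general (Spearman rho across genes -0.26, and -0.16 without HCD replicate 2). With the length trend removed the median of the list was -0.04, and 5 genes passed in place of 6, with Ago2 at an adjusted p of 0.138. The count was 1 when CD replicate 1 was left out, and 3 when either of the other CD libraries was. For Dgcr8 the adjusted p was 0.074 and 0.0639 when CD replicates 1 and 2 were left out in turn, and 0.054 when HCD replicate 1 was. For Ago2 it was 0.0727, 0.0594 and 0.0819 without CD replicates 1, 2 and 3. Trim25 passed under all 13 alternatives. Of the nucleases and uridylating enzymes of the pathway, Drosha, Dicer1, Dis3l2, Zcchc11 (TUT4) and Zcchc6 (TUT7) did not pass, with an adjusted p of 0.137 (Dicer1) to 0.832 (Zcchc6). With the replicate block Dicer1 passed, at an adjusted p of 0.0487, and 7 genes of the list did.

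**Figure D3:**
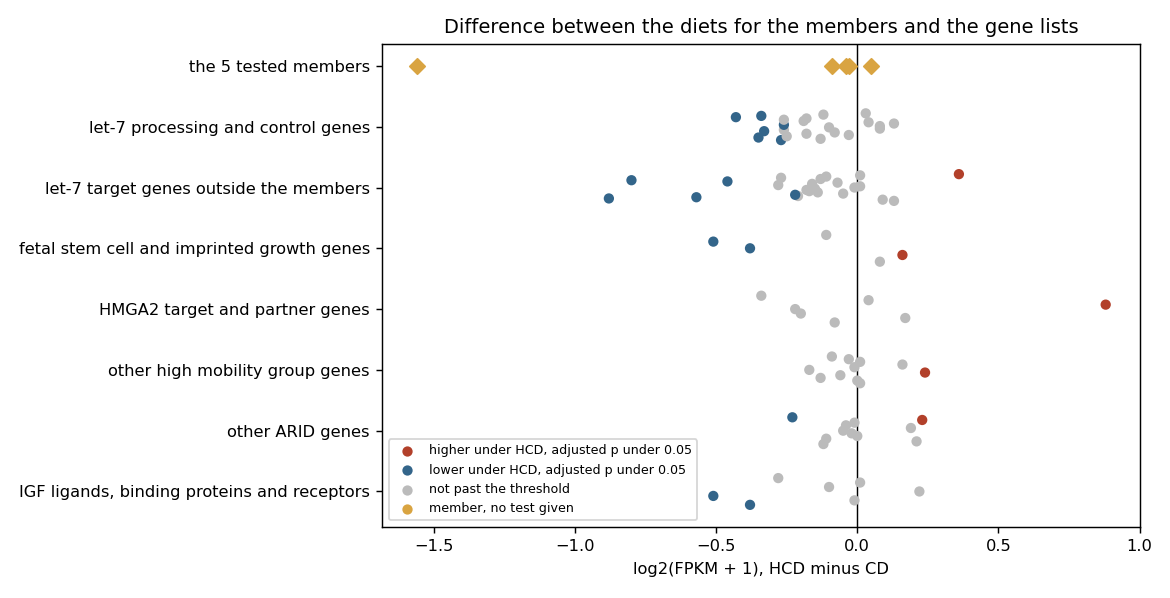
Difference between the diets, HCD minus CD, on the log2(FPKM + 1) scale for the 5 tested members and for each tested gene of 7 lists; each point is a gene, coloured where its limma adjusted p is under 0.05. Hmga2 lies at -1.56, and the other 4 members lie between -0.09 and 0.05.

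Of 27 further genes known as let-7 targets 23 were tested, and 5 were lower and 1 higher under HCD (21.7% lower and 4.3% higher, against 7.66% and 6.28% of all tested genes). The median log2 difference was -0.15, and -0.11 with the length trend removed. Ccnd1 and Ccnd2 encode D-type cyclins that drive entry into the cell cycle. Ccnd1 was at 7.51 ± 1.14 FPKM under HCD and 14.7 ± 1.49 FPKM under CD (log2 difference -0.88 ± 0.14 SE, adjusted p = 0.00216), and Ccnd2 at 31.0 ± 3.27 FPKM under HCD and 46.3 ± 1.51 FPKM under CD (-0.57 ± 0.09, adjusted p = 0.00262). Mycn, a growth-promoting transcription factor gene, had 9.25, 7.05 and 7.55 FPKM in the HCD libraries, against 14.6, 14.4 and 14.6 FPKM in the CD libraries. Its log2 difference was -0.80 ± 0.11 (SE, adjusted p = 0.00166). Myc was at 105 ± 7.27 FPKM under HCD and 145 ± 1.23 FPKM under CD (-0.46 ± 0.06, adjusted p = 0.00197). These 4 genes passed under all 13 alternatives.

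Cdc34, a ubiquitin-conjugating enzyme gene, was the remaining lower one (adjusted p = 0.0428). It lost that call in 8 of 13 alternatives, with no filter (0.0728), median-of-ratios scaling (0.0754), quantile normalization (0.0527) and without any one library but HCD replicate 2 (0.0585 to 0.162). Zbtb16, a zinc finger transcription factor gene named after its value was seen, was the one that was higher, at 2.14 ± 0.0792 FPKM under HCD and 1.45 ± 0.155 FPKM under CD (SD, n = 3 each; log2 difference 0.36 ± 0.06, adjusted p = 0.034). Leaving out any library but HCD replicate 2 ended that call, with an adjusted p of 0.0689 to 0.119. Without HCD replicate 2, 11 target genes passed in place of 6, 10 lower and 1 higher. In that fit more genes passed in general, with 1501 lower and 1171 higher of all 10607 tested. Nras and Hras, which encode growth-signalling GTPases, and the cell cycle kinase gene Cdk6 did not pass, with an adjusted p of 0.179 for Nras, 0.31 for Hras and 0.69 for Cdk6.

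**Figure D4:**
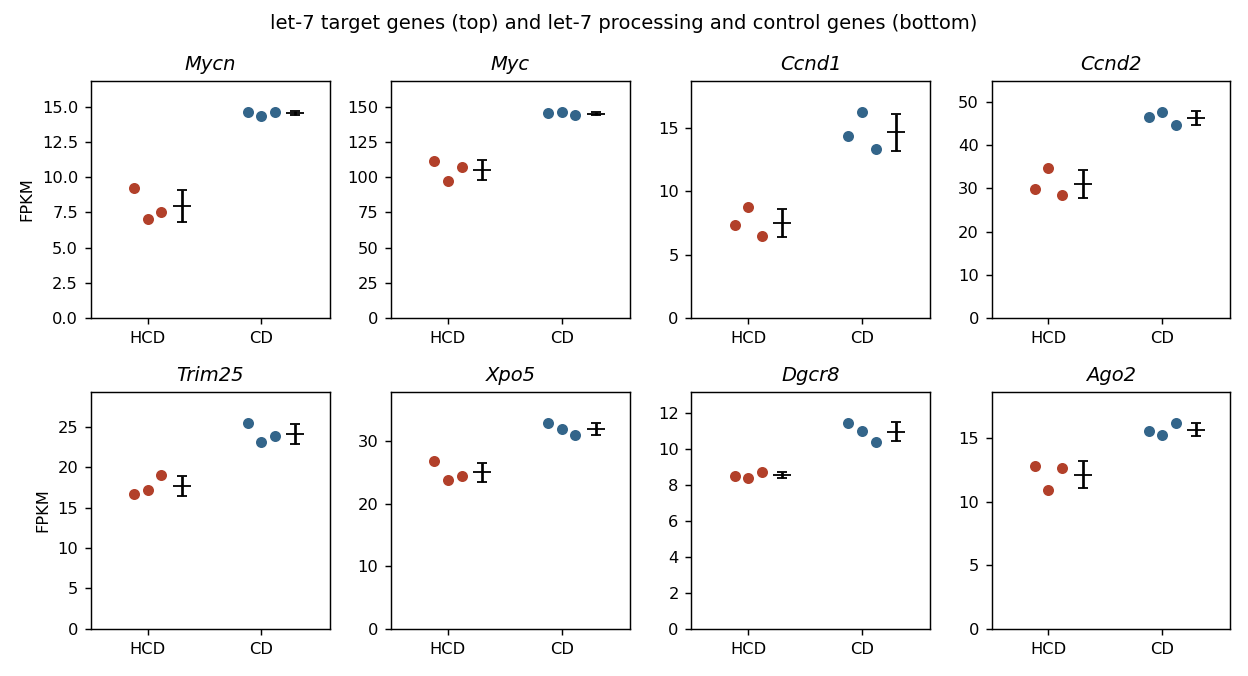
FPKM in each library of 4 let-7 target genes (top) and 4 let-7 processing and control genes (bottom), HCD left of CD, with a y axis from 0 for each gene; points are libraries and the black bar with whiskers is the mean ± SD of 3 libraries. In each panel all HCD libraries lie below all CD libraries, with Mycn at 7.05 to 9.25 FPKM under HCD and 14.4 to 14.6 FPKM under CD.

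Mature let-7 was not measured by these libraries, which were made from mRNA. The genes whose span holds a let-7 or miR-98 hairpin on the same strand were read from the annotation, and 3 of them have deposited values. Huwe1, a ubiquitin ligase gene that holds let-7f-2 and miR-98, was at 38.6 ± 3.94 FPKM under HCD and 48.7 ± 1.18 FPKM under CD (adjusted p = 0.0198). Wdr82, a chromatin-associated gene that holds let-7g, was at 44.0 ± 1.43 FPKM under HCD and 49.5 ± 0.578 FPKM under CD (adjusted p = 0.0414). With the length trend removed neither passed (adjusted p = 0.139 for Huwe1 and 0.0905 for Wdr82). Without any one CD library neither passed either, with an adjusted p of 0.0649 to 0.0877 for Huwe1 and 0.119 to 0.15 for Wdr82. Without HCD replicate 1, Wdr82 had an adjusted p of 0.115. Spaca6, which holds let-7e, was below the filter, at 0.0821 ± 0.0563 FPKM under HCD and 0.137 ± 0.0779 FPKM under CD.

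Beyond single genes of the list, the number of let-7 matches was set against the difference between the diets over all tested genes with an annotated 3' UTR, Hmga2 included. The median log2 difference was -0.028 in 8713 genes with no match, -0.057 in 1455 genes with 1, -0.051 in 259 genes with 2 and -0.123 in 69 genes with 3 or more. Of the 69 genes, 12 were lower and 1 higher under HCD (17.4% and 1.4%), against 7.6% and 6.7% of the genes with no match. UTR length moved with the number of matches, with a median of 5170 bases in the 69 genes and 980 bases in those with none. Among UTRs of 2000 bases or more the medians were -0.071 with no match, -0.081 with 1, -0.053 with 2 and -0.130 with 3 or more. They did not fall step by step. UTR length still differed there, with a median of 2891 bases with no match and 5396 bases with 3 or more. With the length trend removed the median of the 69 genes was -0.011, against -0.005 for genes with no match. In that fit 6 of the 69 were lower and 2 higher (8.7% and 2.9%), against 5.7% and 7.5% of the genes with no match. Without HCD replicate 2 their median was -0.077, against -0.015 for genes with no match. The other tested genes with as many matches as Hmga2 or more did not pass, Nudt12 being at -0.08 ± 0.10 (SE) with 7 matches and D10Wsu102e at -0.12 ± 0.04 with 8, both named after their values were seen.

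**Figure D5:**
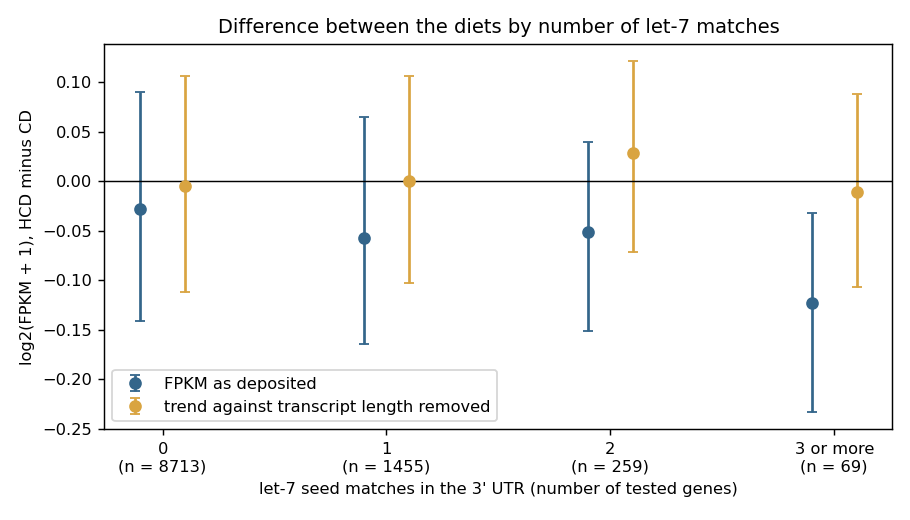
Median difference between the diets, HCD minus CD, on the log2(FPKM + 1) scale by the number of let-7 seed matches in the 3' UTR, for the deposited values and after removing the trend against transcript length; bars run from the lower to the upper quartile of genes. The median of genes with 3 or more matches is -0.123 in the deposited values and -0.011 with the trend removed.

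Among genes that HMGA2 is known to act on or with, 7 of 11 were tested, and 1 was higher and 0 lower by limma (14.3% higher, against 6.28% of all tested genes). At an unadjusted p under 0.05, 2 were higher and 1 lower. Junb, a transcription factor gene that responds to stimulation within minutes, had 564, 423 and 567 FPKM in the HCD libraries, against 288, 267 and 282 FPKM in the CD libraries (log2 difference 0.88 ± 0.14 SE, adjusted p = 0.00205). HCD replicate 2 was the lowest of its group. The cell cycle inhibitor genes Cdkn2a and Cdkn2b, which HMGA2 is known to hold down in neural stem cells, were at or near 0. Cdkn2a was at 0.0154 ± 0.0267 FPKM under HCD and 0.0156 ± 0.0270 FPKM under CD. Of 11 tested genes of other high mobility group proteins 1 was higher and 0 lower by limma (9.1% higher, against 6.28% of all tested genes; 1 higher and 2 lower at an unadjusted p under 0.05). It was Hmgb3, at 67.0 ± 3.65 FPKM under HCD and 56.7 ± 2.84 FPKM under CD (adjusted p = 0.0286). That call ended without any one library other than HCD replicate 2 (adjusted p = 0.0574 to 0.122). The list had 1 higher and 1 lower gene with the replicate block.

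Of 11 tested genes of other ARID proteins 1 was higher and 1 lower (9.1% each, against 6.28% and 7.66% of all tested genes). With median-of-ratios scaling, and with the length trend removed, 2 were higher and 0 lower by limma. Arid1b, which encodes a chromatin remodeller subunit, had an adjusted p of 0.0541, of 0.0398 with the replicate block and of 0.002 with the length trend removed. The pair past the threshold encode histone demethylases. They are Kdm5b, at 11.1 ± 0.425 FPKM under HCD and 9.28 ± 0.246 FPKM under CD (adjusted p = 0.0441, and 0.0525 with the replicate block), and Kdm5c, at 13.0 ± 0.624 FPKM under HCD and 15.4 ± 0.518 FPKM under CD (adjusted p = 0.0409, and 0.143 with the length trend removed). Leaving out any library but HCD replicate 2 ended both calls, with an adjusted p of 0.0879 to 0.145 for Kdm5b and 0.0642 to 0.149 for Kdm5c.

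Of 13 fetal and imprinted growth genes 5 were tested, and 2 were lower and 1 higher (against 7.66% lower and 6.28% higher of all tested genes). Igf2r, the gene for a receptor that clears IGF2, was at 2.84 ± 0.344 FPKM under HCD and 4.46 ± 0.427 FPKM under CD (adjusted p = 0.0136). Grb10, an adaptor gene that restrains insulin and IGF signalling, was at 3.17 ± 0.352 FPKM under HCD and 4.41 ± 0.0719 FPKM under CD (adjusted p = 0.0261). Gnas, which encodes a stimulatory G protein subunit, was at 75.5 ± 1.92 FPKM under HCD and 67.3 ± 1.65 FPKM under CD (adjusted p = 0.0394). The call of Igf2r ended without CD replicate 1, CD replicate 2 or HCD replicate 1 (adjusted p = 0.0622, 0.0639 and 0.054), that of Grb10 without HCD replicate 1 or any CD library (0.0544 to 0.0967), and that of Gnas without any library but HCD replicate 2 (0.0544 to 0.154). Sox17, the fetal stem cell transcription factor gene, was listed at 0 in all HCD libraries, against 0, 0 and 0.0377 FPKM in the CD libraries. Igf2 was below the filter, at 0.136 ± 0.0228 FPKM under HCD and 0.180 ± 0.0658 FPKM under CD. In the list of IGF ligands, binding proteins and receptors 7 of 17 were tested, and the 2 that were lower are again Igf2r and Grb10, with 0 higher by limma (28.6% lower, against 7.66% of all tested genes; 3 lower and 1 higher at an unadjusted p under 0.05).

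The 5 genes whose pattern over the 6 libraries was most like that of Hmga2, by Pearson's r of log2(FPKM + 1), were Wdr43 (r = 0.999), Kat6a (0.999), Prpf8 (0.998), Top2a (0.998) and Eif3j1 (0.997). Their means were 1.14-fold (Eif3j1) to 1.19-fold (Kat6a) lower under HCD, against 4.81-fold for Hmga2. Wdr43 was at 48.6 ± 1.19 FPKM under HCD and 56.5 ± 0.370 FPKM under CD, and Kat6a at 21.97 ± 0.694 FPKM under HCD and 26.2 ± 0.179 FPKM under CD (SD, n = 3 each). In all 5 genes each HCD library lay below each CD library. Hmga2 was chosen by its difference between the diets, so a high r largely reflects how cleanly a gene splits the same libraries. It is not read as shared regulation. An r above 0.95 was reached by 422 of 10350 genes. For the other tested members r with Hmga2 was -0.49 (Hmga1), 0.12 (Igf2bp2), 0.47 (Arid3a) and 0.21 (Arid3b).

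The nearest coding genes beside Hmga2 on chromosome 10 differed between the diets in both directions. Since Hmga2 had the largest decrease of all tested genes on the log2(FPKM + 1) scale, that none of them fell as far on it follows from its choice. On the side of lower coordinates, Llph (128.7 kb away) was at 44.9 ± 3.17 FPKM under HCD and 48.3 ± 2.29 FPKM under CD (adjusted p = 0.29), and Tmbim4 (136.4 kb) at 62.5 ± 0.689 FPKM under HCD and 52.6 ± 1.73 FPKM under CD (adjusted p = 0.0101, and 0.0557 without CD replicate 3). On the other side, Msrb3 (304.6 kb), a methionine sulfoxide reductase gene, was at 4.44 ± 0.616 FPKM under HCD and 6.38 ± 0.484 FPKM under CD (adjusted p = 0.0248, and 0.0714 to 0.099 without HCD replicate 1 or any CD library). Lemd3 (446.9 kb) was at 9.24 ± 1.53 FPKM under HCD and 9.69 ± 0.641 FPKM under CD (adjusted p = 0.7).

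Markers of other cells moved with the diets as well. The summed FPKM of 7 genes of granulocyte and monocyte progenitors was 1620 to 1794 in the HCD libraries and 877 to 904 in the CD libraries, and all 7 were higher. Higher sums under HCD were also found for 4 mast cell and basophil genes (49.5 to 58.3, against 27.1 to 32.0 under CD, 3 of 4 tested higher), 4 megakaryocyte genes (77.5 to 91.7, against 46.6 to 51.0 under CD, 3 of 3 higher) and 7 genes of stroma and endothelium (62.7 to 66.0, against 47.5 to 50.4 under CD). The stromal and endothelial sum was nearly all Pecam1 (41.0 ± 2.09 FPKM under HCD and 32.5 ± 1.51 under CD) and Pdgfrb (21.8 ± 0.327 under HCD and 15.7 ± 1.05 under CD), the tested genes of that list and both higher. Lepr, Col1a1, Cdh5 and Kdr, which are more specific to such cells, were near 0, with Kdr, the most abundant of them, at 0.245 ± 0.0138 FPKM under HCD and 0.292 ± 0.0845 under CD. Cxcl12, the remaining gene of that list, was below the filter, at 0.795 ± 0.0612 FPKM under HCD and 0.516 ± 0.0873 under CD. Each HCD library lay above each CD library for Cxcl12. The sum of 5 T and NK cell genes (126 to 148 under HCD, against 102 to 107 under CD) was nearly all Nkg7, the one tested and higher. Cd3e was listed at 0 in all 6 libraries, and Cd3d, Cd3g and Ncr1 were each at 0.104 FPKM or less in every library. The 9 stem cell genes summed to 130.6 to 133.1 under HCD and 140.0 to 142.5 under CD, with 2 higher (Slamf1 and Vwf) and 3 lower (Hlf and Fgd5 among them) of 8 tested. The 4 sort markers summed to 736 to 755 under HCD and 763 to 791 under CD, and the 3 genes of multipotent progenitors to 625 to 652 under HCD and 644 to 668 under CD, with none past the threshold in either list. The sums overlapped between the diets for B cell genes (28.8 to 31.3 under HCD and 27.7 to 37.1 under CD, 1 of 4 tested lower), erythroid genes (35.6 to 47.8 under HCD and 43.9 to 47.2 under CD, 1 of 5 lower) and macrophage genes (17.3 to 20.2 under HCD and 19.9 to 21.1 under CD, 1 higher and 2 lower of 4). The part of such cells in the lower Hmga2 level, and in the lists above, was not tested. Across the 10676 tested genes 670 were higher and 818 lower under HCD, and with median-of-ratios scaling 762 were higher and 623 lower. With the length trend removed 766 were higher and 577 lower.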

How the data were processed

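Per the submitters' processing notes the authors used fastp, HISAT2 and StringTie with the builds GRCm38 and mm10, and per the labels' protocols the libraries were stranded and made from mRNA. The tools' versions and the gene annotation are not stated by the sources used here. The deposited values were taken as FPKM from their behaviour, because the headers hold just a sample name. Of 21878 rows, 27 had a date where the symbol should stand and were left out. Read numbers per gene are estimates: with the depths given, 40.2% to 46.3% of low values of genes with 1 annotated transcript were whole reads within 0.05, against 6.9% to 7.5% at other depths.

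HCD was compared with CD by limma 3.58.1 (R 4.3.3; mean-variance trend, robust) on log2(FPKM + 1), two-sided, with Benjamini-Hochberg adjustment over the 10676 genes that reached 1 FPKM in 3 or more libraries. No count model was used. The fit was checked on simulated data. These had no length trend and no library standing apart, so the check does not cover either. SEs are those of the difference of means. Deviations of same-numbered libraries of the 2 diets had correlations across genes of 0.103, 0.292 and 0.166. Those of unlike-numbered libraries were -0.25 to 0.098, so the highest of them was close to the lowest same-numbered value. A fit with the replicate number as a block was therefore an alternative, although the labels do not say that the numbers pair. UTRs came from GENCODE vM21 (GRCm38) and microRNAs from RefSeq. Named genes are the members, up to 4 per list with the smallest adjusted p, the 5 most like Hmga2 and its neighbours; other genes were named for their role, after their values were seen. The members and lists were chosen with earlier results of these data known. H19, Meg3 and the proteins' sequences were not analysed here. Some genes of the lists are not reported here by name.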

Additional observations from a re-analysis of the deposited data

How the results depend on the processing

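Hmga2 was lower under HCD in every alternative that could be fitted. Its log2 difference was -2.2 with a pseudocount of 0.1, -1.52 to -1.56 with the other scalings, no filter and the replicate block, and -1.67 to -1.43 when 1 library was left out. It could not be fitted with a filter of 5 FPKM, which it does not reach in 3 libraries. Removing the length trend was chosen after seeing the data, as was applying the alternatives to the hosts of let-7.

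Over the libraries left out in turn, the genes past the threshold numbered 435 to 2672 (1488 with all), the let-7 processing genes 1 to 6 (6 with all), the let-7 targets 4 to 11 (6), the fetal and imprinted genes 0 to 3 (3), the HMGA2 targets 1 to 2 (1), the other high mobility group genes 0 to 2 (1), the other ARID genes 0 to 4 (2), the IGF genes 0 to 3 (2) and the let-7 hosts 0 to 2 (2). The most genes passed without HCD replicate 2 (2672). With a filter of 5 FPKM, which leaves fewer genes tested, 1 fetal gene and 0 IGF genes passed. With no filter 2 HMGA2 targets, 0 other high mobility group genes, 0 other ARID genes and 1 let-7 host passed. Quantile normalization gave 3 other high mobility group genes and 1 host, median-of-ratios scaling 1 host, and the length trend removed 0 hosts. The causes were not tested. Where no gene of a list passed by limma, 0 to 3 did in each direction at an unadjusted p under 0.05. With the replicate block 1873 genes passed in all and 2 other high mobility group genes, and of the named genes Kdm5b alone lost its call (adjusted p = 0.0525), while Dicer1 (0.0487) and Arid1b (0.0398) gained one. No list gene past the threshold with all libraries changed sign. At 18860000 to 19920000 reads a library, Lin28b, Igf2bp1 and Igf2bp3 are too low for a comparison. Counting only 8mers left 6 of the 8 members with a match.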
